A study of Mus musculus with 8 samples.

Results

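Complement is a cascade of plasma proteins and receptors that marks microbes, dying cells and debris for removal. C1q binds such surfaces and starts the classical pathway, C4 and C2 carry it on to the cleavage of C3, factor B and properdin drive and stabilize the alternative pathway, and the small fragments C3a and C5a act on leukocytes through their receptors. Macrophages are among the sources of C1q and properdin, and C1q bound to apoptotic cells aids their uptake.

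The genes described here are 9 complement components and receptors, C1qa, C1qb, C1qc, C3, C3ar1, C5ar1, Cfb, Cfp and C4b, out of 49315 genes in the table of counts. They were chosen by name, with earlier results of these data known. Their rows are those whose Ensembl identifier carries such a symbol in GENCODE M21, and each symbol matched 1 row. All 9 passed the filter on low counts, as did 13051 genes in all. RNA was sequenced from bone marrow-derived macrophages (BMDMs), cells grown out of C57BL/6 marrow in medium with mMCSF, a macrophage growth factor, at 10 ng/ml. One group of 4 libraries came from cells transfected with negative control #1 gapmeR and the other 4 from cells transfected with a gapmeR against MAARS, both with Lipofectamine and, per the labels, at 25 nM. A gapmeR is an antisense oligonucleotide that directs RNase H to cut its target, and MAARS is the long non-coding RNA Gm14461. The libraries keep the numbers of the labels, which are 2, 5, 6 and 7 for control gapmeR and 9, 11, 13 and 15 for MAARS gapmeR. The sources used here do not say whether libraries of a group came from separate mice or cultures, so the p-values measure the spread between these libraries.

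MAARS itself was at 12.19, 15.08, 12.98 and 12.23 CPM (counts relative to the library total, which was scaled by TMM factors) in control libraries 2, 5, 6 and 7. It was at 7.71, 6.41, 7.31 and 5.85 CPM in MAARS gapmeR libraries 9, 11, 13 and 15, below every control, with a log2 fold change of -0.95 (SE 0.112, adjusted p = 5.8e-05 from edgeR). The libraries held between 19287279 and 24541205 counts, and every MAARS gapmeR library was deeper than every control. Of 7 macrophage marker genes all were detected, 4 being higher and 2, Cd68 and Fcgr1, lower with MAARS gapmeR. Lyz2 was the most abundant at 8048 to 14677 CPM, and the panmacrophage marker Adgre1 (F4/80) lay between 1227 and 1382 CPM in all 8 libraries. The 3 T cell markers were at or near 0, Cd3g having no count in any library and Cd3d and Cd3e together at most 0.119 CPM, whereas fibroblast or stromal and neutrophil markers were present at the levels given beside C3, C4b and Cfb. Control libraries 6 and 7 lay above control libraries 2 and 5 in 7 of the 9 complement genes, an order that 22.5% of all genes tested also showed (22.1% showed the opposite order). For this reason the results were also computed without control libraries 6 and 7, and without control libraries 2 and 5.

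With MAARS gapmeR 7 of the 9 complement genes were lower and none was higher. The groups differ in the gapmeR sequence as well as in the level of MAARS, and effects of these cannot be told apart here. C4b, Cfb and C3, the components consumed in the cascade, fell, with log2 fold changes of -2.97, -2.52 and -1.76. The 3 chains of C1q and the C3a receptor gene C3ar1 fell with log2 fold changes between -0.62 and -0.40. Properdin (Cfp) and the C5a receptor gene C5ar1 did not pass the test, with log2 fold changes of 0.06 and 0.15. The quasi-likelihood test of edgeR was used, with p-values adjusted across the 13051 genes and calls made below 0.05. By the same call 45.4% of all genes tested differed between the groups, made up of 24.0% that were lower and 21.3% that were higher with MAARS gapmeR. The median log2 fold change was -0.51 over the 9 genes and 0.01 over all genes tested. The ranges of the groups did not overlap in 7 of the 9 genes, against 42.1% of all genes tested. The 9 genes were chosen with earlier results of these data known, so these contrasts with all genes are not independent of that choice. These libraries are of bulk RNA, in which fewer cells expressing a gene and less RNA per cell cannot be told apart.

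**Figure D1:**
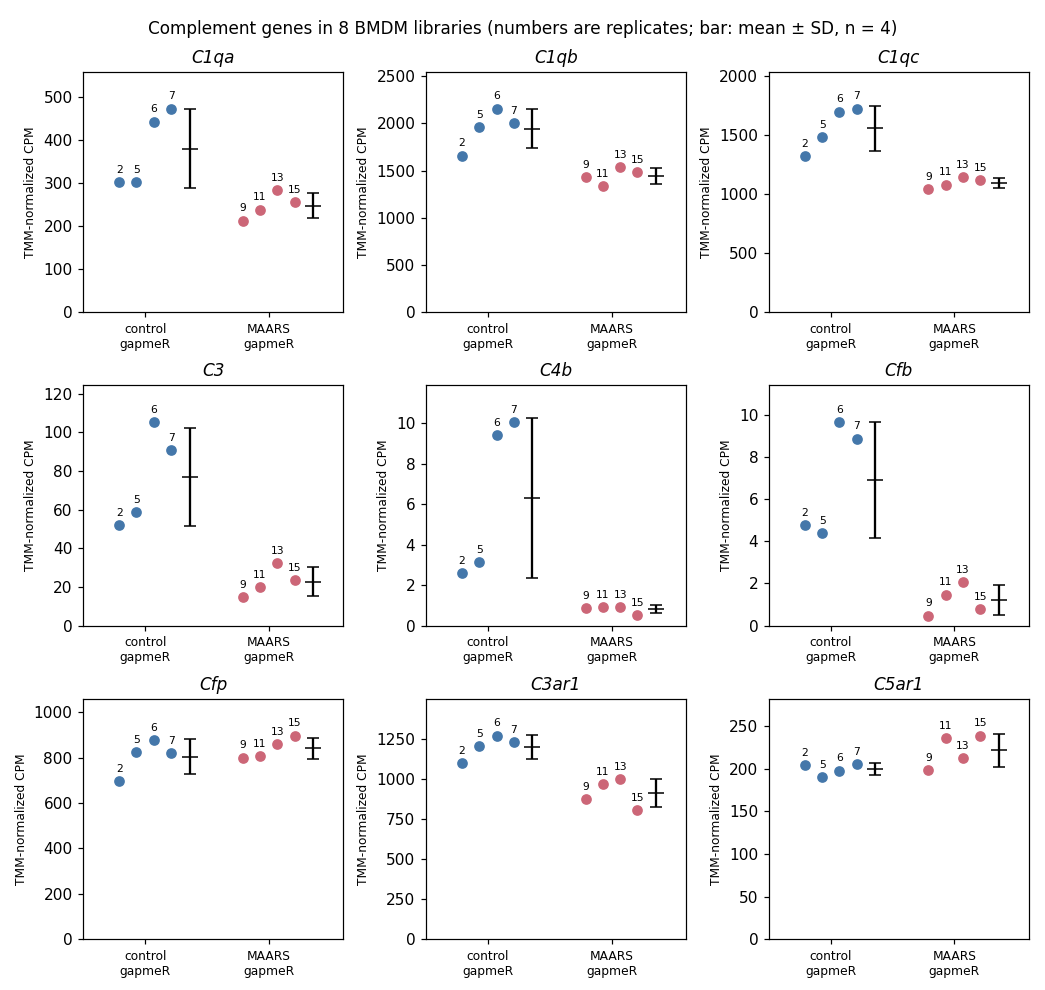
TMM-normalized CPM (y axis, from 0) of each of the 9 complement genes in the 4 control gapmeR and 4 MAARS gapmeR libraries, 1 point per library with its replicate number, and the mean ± SD of each group as a black bar. In C1qa, C1qb, C1qc, C3, C4b, Cfb and C3ar1 every MAARS gapmeR library lies below every control, and in C3, C4b and Cfb control libraries 6 and 7 stand above control libraries 2 and 5.

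The windows just before the transcription start are shown for 4 of the genes, 3 that fell (C1qb, C3 and C3ar1) and 1 that did not pass the test (Cfp), as the 250 bases upstream of the RefSeq start on GRCm38.p6, 5′ to 3′ on the strand of the gene. RefSeq windows matched 6 of the 9 symbols, and C1qa, Cfb and C4b had no entry. Both strands were searched for GAAANNGAA, the core of the interferon-stimulated response element, TTCNNNGAA, the gamma-activated site, GAGGAA, the core bound by PU.1, and the kappaB consensus. Capitals mark a match, of which these 4 windows hold 1, a GAGGAA in C1qb from 30 to 25 bases before the start.
C1qb, chr4:136886201-136886450, minus strand: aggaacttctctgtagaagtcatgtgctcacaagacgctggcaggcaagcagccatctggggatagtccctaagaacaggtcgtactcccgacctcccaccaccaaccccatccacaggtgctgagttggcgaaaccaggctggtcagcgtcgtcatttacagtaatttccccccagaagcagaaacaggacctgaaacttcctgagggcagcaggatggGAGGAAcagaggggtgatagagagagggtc
C3, chr17:57228137-57228386, minus strand: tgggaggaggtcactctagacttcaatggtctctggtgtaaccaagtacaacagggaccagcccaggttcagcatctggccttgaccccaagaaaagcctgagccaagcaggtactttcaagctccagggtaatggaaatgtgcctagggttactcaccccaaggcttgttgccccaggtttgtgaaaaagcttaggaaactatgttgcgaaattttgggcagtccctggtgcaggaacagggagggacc
C3ar1, chr6:122856158-122856407, minus strand: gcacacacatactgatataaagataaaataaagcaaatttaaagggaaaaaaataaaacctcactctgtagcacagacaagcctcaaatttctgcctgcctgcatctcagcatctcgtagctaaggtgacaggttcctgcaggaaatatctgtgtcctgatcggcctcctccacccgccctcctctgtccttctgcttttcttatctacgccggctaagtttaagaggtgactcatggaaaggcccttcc
Cfp, chrX:20931556-20931805, minus strand: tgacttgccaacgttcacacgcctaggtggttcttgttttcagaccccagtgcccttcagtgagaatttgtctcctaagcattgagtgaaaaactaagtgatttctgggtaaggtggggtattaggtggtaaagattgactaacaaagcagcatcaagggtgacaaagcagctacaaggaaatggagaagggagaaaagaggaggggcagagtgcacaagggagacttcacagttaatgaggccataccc

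The RefSeq starts of C1qc and C5ar1 lie inside the genes as GENCODE M21 draws them, so their windows are not wholly upstream and are not shown. The C1qc window held a GAGGAA upstream of the GENCODE gene and a kappaB match inside it, and the C5ar1 window a GAAANNGAA inside the gene. No matches overlapped each other. The last bases of the C3ar1 window also lie within its GENCODE gene. Among 32851 RefSeq windows of this length GAAANNGAA occurred in 7.13%, TTCNNNGAA in 7.02%, GAGGAA in 23.3% and kappaB in 7.25%. No match means only that these letters are absent from this window.

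C1q is built from the products of C1qa, C1qb and C1qc (ENSMUSG00000036887, ENSMUSG00000036905 and ENSMUSG00000036896), which lie next to each other on the minus strand of chromosome 4 (GRCm38), C1qb from 136880129 to 136886187, C1qc from 136889804 to 136893065 and C1qa from 136895917 to 136898803. No exon of these genes overlaps another gene, and no stretch of 100 nt of their transcripts occurs in a transcript of another gene. C1qb had 1658, 1957, 2157 and 2006 CPM in control libraries 2, 5, 6 and 7, and 1431, 1335, 1532 and 1486 CPM in MAARS gapmeR libraries 9, 11, 13 and 15. The lowest control thus stayed above the highest MAARS gapmeR library, by a small margin. Its log2 fold change was -0.43 (SE 0.0777, adjusted p = 0.00105 from edgeR), a decrease by 25.6%. C1qc had 1321, 1479, 1697 and 1723 CPM in the controls and 1040, 1078, 1144 and 1114 CPM with MAARS gapmeR, a log2 fold change of -0.51 (SE 0.0801, adjusted p = 0.000409 from edgeR). Here the MAARS gapmeR libraries were close together, with a coefficient of variation of 4.09% against 12.3% in the controls. C1qa had 302.9, 301.9, 443.9 and 474.3 CPM in the controls and 213.0, 238.8, 284.1 and 255.5 CPM with MAARS gapmeR, a log2 fold change of -0.62 (SE 0.147, adjusted p = 0.00537 from edgeR). Control libraries 2 and 5 lay just above the highest MAARS gapmeR library, while 6 and 7 stood well apart, and without the latter pair the log2 fold change of C1qa was -0.29 (adjusted p = 0.0381 from edgeR). In the same fit the log2 fold changes of C1qb and C1qc were -0.32 and -0.36 (adjusted p = 0.0102 and 0.00218 from edgeR). Without control libraries 2 and 5 those of C1qa, C1qb and C1qc were -0.89, -0.53 and -0.65 (adjusted p = 5.08e-05, 9.98e-05 and 8.54e-06 from edgeR).

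No ratio between the 3 chains passed a test of the difference between the groups. The log2 ratio of C1qa to C1qb, in counts per kilobase, was -2.31 ± 0.261 in the controls and -2.49 ± 0.139 with MAARS gapmeR (SD, n = 4 each; two-sided exact permutation test, p = 0.286, adjusted over 6 ratios 0.343). For C1qa to C1qc it was -1.16 ± 0.195 and -1.26 ± 0.116 (exact permutation test, p = 0.429, adjusted 0.429), and for C1qb to C1qc 1.15 ± 0.0769 and 1.23 ± 0.0656 (exact permutation test, p = 0.229, adjusted 0.343). Per kilobase of merged exons, C1qb was thus present at 2.07 to 2.44 times the level of C1qc in every library. This factor depends on the length used, since C1qc has 1931 nt of merged exons and a longest transcript of 1203 nt. Per kilobase of the longest transcript, C1qb and C1qc were at 1787 and 1292.5 CPM in the controls. With MAARS gapmeR they were at 1329 and 909.5 CPM by this length.

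C3 (ENSMUSG00000024164), the component on which all pathways converge, lies on chromosome 17 from 57203970 to 57228136 on the minus strand and overlaps no other exon. It had 52.1, 58.9, 105.4 and 90.9 CPM in control libraries 2, 5, 6 and 7, and 14.95, 19.97, 32.53 and 23.40 CPM in MAARS gapmeR libraries 9, 11, 13 and 15. The groups did not overlap, and controls 6 and 7 were the highest. Its log2 fold change was -1.76 (SE 0.252, adjusted p = 0.000218 from edgeR), which is 3.38-fold lower, and -1.29 without control libraries 6 and 7 (adjusted p = 0.00166 from edgeR). Without control libraries 2 and 5 the log2 fold change of C3 was -2.11 (adjusted p = 3.34e-05 from edgeR).

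C4b (ENSMUSG00000073418), the C4 gene that acts in the classical and lectin pathways, lies on the same chromosome within the major histocompatibility complex, from 34728380 to 34743882. Its counts were low, at 51, 62, 174 and 205 in control libraries 2, 5, 6 and 7, and at 18, 23, 20 and 12 in MAARS gapmeR libraries 9, 11, 13 and 15. Normalized, this was 2.61, 3.16, 9.41 and 10.1 CPM and 0.851, 0.915, 0.919 and 0.520 CPM. All MAARS gapmeR libraries were below all controls, and the controls spread over a 3.86-fold range. The log2 fold change was -2.97 (SE 0.473, adjusted p = 0.000435 from edgeR), which is 7.83-fold lower. This size rests on which controls are counted, since it was 3.59-fold without control libraries 6 and 7 (adjusted p = 0.000837 from edgeR) and 12.1-fold without 2 and 5 (adjusted p = 1.24e-06 from edgeR). Of the 100-nt windows of the C4b transcript, 16.5% also occur in its paralog C4a, so part of the reads could not be placed in either gene by sequence alone. C4a was at 0.656 ± 0.195 CPM in the controls and 0.627 ± 0.186 CPM with MAARS gapmeR (SD, n = 4), and did not pass (adjusted p = 0.915 from edgeR).

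Cfb (ENSMUSG00000090231), which encodes factor B of the alternative pathway C3 convertase, lies nearby on chromosome 17 from 34856374 to 34862518. It had counts of 93, 86, 179 and 181 in control libraries 2, 5, 6 and 7, and of 10, 37, 45 and 18 in MAARS gapmeR libraries 9, 11, 13 and 15. In CPM this was 4.76, 4.38, 9.68 and 8.89 against 0.473, 1.47, 2.07 and 0.780. The highest MAARS gapmeR library was below the lowest control. The log2 fold change was -2.52 (SE 0.385, adjusted p = 0.000334 from edgeR), which is 5.73-fold lower, or 3.79-fold without control libraries 6 and 7 (adjusted p = 0.00465 from edgeR). Without control libraries 2 and 5 Cfb was 7.68-fold lower (adjusted p = 9.24e-05 from edgeR). In GENCODE M21 79.5% of the exonic bases of Cfb are shared with Gm20547, a gene on the same strand that also spans C2. Gm20547 had no count in any library. Reads that fall on both genes were thus not counted for Gm20547. Where the counting left them out altogether, the level of Cfb is understated in both groups.

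Beside the falls of C3, C4b and Cfb, the levels of other cell types were read from marker lists. All 6 fibroblast or stromal markers were detected, 5 were tested and none passed an adjusted p under 0.05 in either direction. Their summed level was 620.0, 457.2, 750.5 and 1043 CPM in control libraries 2, 5, 6 and 7, and 716.2, 916.8, 1230 and 766.8 CPM in MAARS gapmeR libraries 9, 11, 13 and 15. It was therefore higher in controls 6 and 7 than in controls 2 and 5, as C3, C4b and Cfb were. All MAARS gapmeR libraries had a higher marker sum than control library 5, the control with the lowest sum, and lower C3, C4b and Cfb. Most of this sum came from Col1a1 and Col1a2, and Lum had no count in the controls. The log2 fold changes of the tested markers were 0.38 for Col1a1, 0.31 for Col1a2, 0.23 for Col3a1, 0.21 for Pdgfra and -0.79 for Dcn. Dcn was at 2.20, 1.43, 3.62 and 4.62 CPM in control libraries 2, 5, 6 and 7. It was at 0.993, 1.39, 2.57 and 1.91 CPM in MAARS gapmeR libraries 9, 11, 13 and 15. The summed level of 8 neutrophil markers was 141.1, 101.3, 180.0 and 298.6 CPM in the controls in the same order, and 105.3 to 168.1 CPM with MAARS gapmeR, with none of the 7 tested passing an adjusted p under 0.05. The 4 endothelial markers summed to 17.1 to 21.8 CPM in the controls and 7.63 to 8.71 CPM with MAARS gapmeR, but most of this sum was Kdr, the 1 gene of the 3 tested that was lower. Cdh5 and Pecam1 did not pass (adjusted p = 0.121 and 0.545 from edgeR), and Tek was at 0.159 CPM or less in every library. The part of other cell types in the results was not tested.

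**Figure D2:**
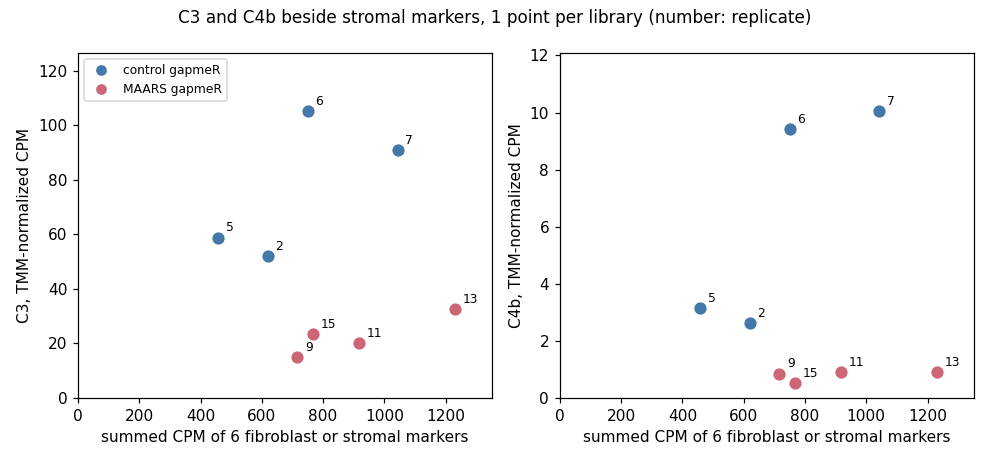
C3 (left) and C4b (right) in TMM-normalized CPM (y axis) against the summed CPM of 6 fibroblast or stromal markers (x axis), 1 point per library with its replicate number. The 4 MAARS gapmeR libraries, with marker sums of 716.2 to 1230 CPM, lie below all 4 controls in both genes, and among the controls 6 and 7 are higher on both axes than 2 and 5.

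Cfp (ENSMUSG00000001128), on the X chromosome from 20925454 to 20931555, encodes properdin, which stabilizes the alternative pathway convertase. It had 696.4, 822.4, 877.7 and 820.6 CPM in control libraries 2, 5, 6 and 7, and 800.0, 804.6, 859.0 and 897.0 CPM in MAARS gapmeR libraries 9, 11, 13 and 15. The groups overlapped almost fully. The log2 fold change was 0.06 (SE 0.0706, adjusted p = 0.492 from edgeR), and its sign turned to -0.02 without control libraries 2 and 5.

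The receptor genes for the C3a and C5a fragments differed in their values. C3ar1 (ENSMUSG00000040552), on chromosome 6 from 122847138 to 122856161, had 1096, 1204, 1269 and 1228 CPM in control libraries 2, 5, 6 and 7, and 871.9, 966.7, 999.7 and 803.6 CPM in MAARS gapmeR libraries 9, 11, 13 and 15. The groups did not overlap, and the log2 fold change was -0.40 (SE 0.0734, adjusted p = 0.00114 from edgeR), a decrease by 24.1%. C5ar1 (ENSMUSG00000049130), on chromosome 7 from 16246743 to 16259540, had 204.4, 190.8, 198.0 and 205.4 CPM in the controls and 199.0, 236.6, 213.1 and 239.3 CPM with MAARS gapmeR. Of the MAARS gapmeR libraries 3 lay above all controls and library 9 lay among them. The log2 fold change of 0.15 (SE 0.0612) did not pass, with an adjusted p of 0.0605 from edgeR. It passed without MAARS gapmeR library 9 (0.20, adjusted p = 0.0159 from edgeR), with upper-quartile factors (0.22, adjusted p = 0.0158 from edgeR) and with DESeq2 (0.16, adjusted p = 0.0439 from DESeq2).

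Within each library the ratio of C3ar1 to C5ar1 per kilobase was 3.20, 3.77, 3.83 and 3.57 in control libraries 2, 5, 6 and 7, and 2.62, 2.44, 2.80 and 2.00 in MAARS gapmeR libraries 9, 11, 13 and 15. Every control was above every MAARS gapmeR library, a difference of -0.55 in log2 ratio (exact permutation test, p = 0.0286 and 0.0857 adjusted over 6 ratios, 0.0286 being the lowest value possible with 4 against 4 libraries). C3 to Cfb was 5.61 to 7.38 in the controls and 7.45 to 17.4 with MAARS gapmeR, a difference of 0.91 in log2 ratio (exact permutation test, p = 0.0286, adjusted 0.0857). The groups of this ratio came close, with control library 5 at 7.38 and MAARS gapmeR library 11 at 7.45. Its size is overstated in both groups where reads shared by Cfb and Gm20547 were left out. C3 to C4b differed by 1.01 in log2 ratio (exact permutation test, p = 0.0857, adjusted 0.171), with overlapping groups. After adjustment none of the 6 ratios passed 0.05. With this lowest possible p, that required most of the 6 ratios to separate the groups fully, so the adjusted test could hardly pass.

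**Figure D3:**
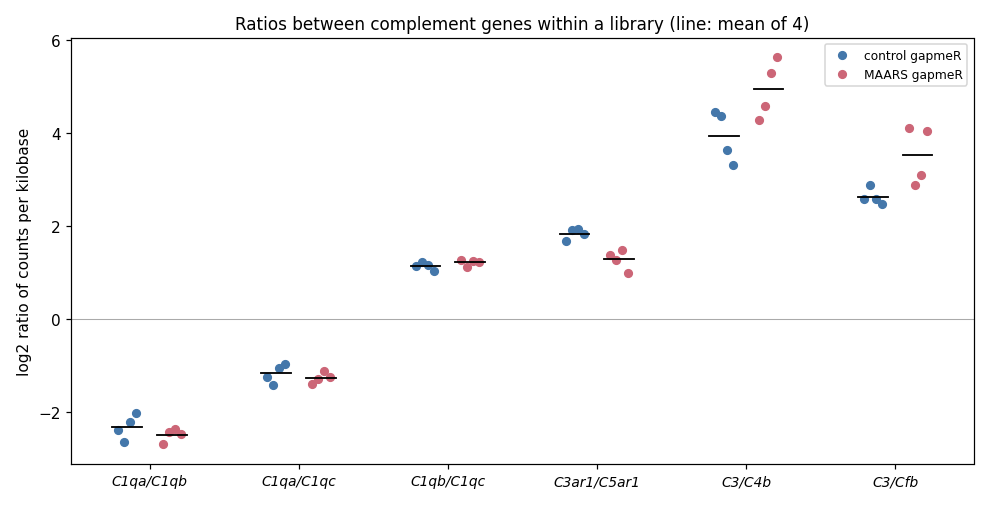
The log2 ratio of counts per kilobase of exon (y axis) for 6 pairs of complement genes, 1 point per library and a line at the mean of each group of 4. The C3ar1/C5ar1 ratio is lower in all 4 MAARS gapmeR libraries than in all 4 controls, while the ratios between the C1q chains overlap between the groups.

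Per kilobase of exon, the level ran over 3 orders of magnitude between the members. In the controls C1qb was highest with 1787 ± 192 CPM per kilobase (SD, n = 4), followed by C1qc with 805.2 ± 98.7, Cfp with 463.3 ± 44.2, C1qa with 366.1 ± 87.8, C3ar1 with 278.6 ± 17.1 and C5ar1 with 77.7 ± 2.63. C3 was at 14.9 ± 4.96, Cfb at 2.45 ± 0.972 and C4b at 1.11 ± 0.698 CPM per kilobase. The length used for Cfb includes bases shared with Gm20547, so its level is understated where reads on both genes were left out. The place of Cfb beside C3 and C4b is then not settled. The libraries of neighbours in this order did not overlap except for Cfp with C1qa, C1qa with C3ar1, and Cfb with C4b. With MAARS gapmeR the order was the same, from C1qb at 1329 ± 78.1 down to C4b at 0.141 ± 0.0334 CPM per kilobase, and only C1qa and C3ar1 overlapped. Among the genes tested C1qb ranked between 13 and 23 in every library by this level, whereas C3 ranked between 2501 and 4392 in the controls and between 5805 and 8174 with MAARS gapmeR. The 3 genes that fell most were thus the 3 with the lowest level.

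**Figure D4:**
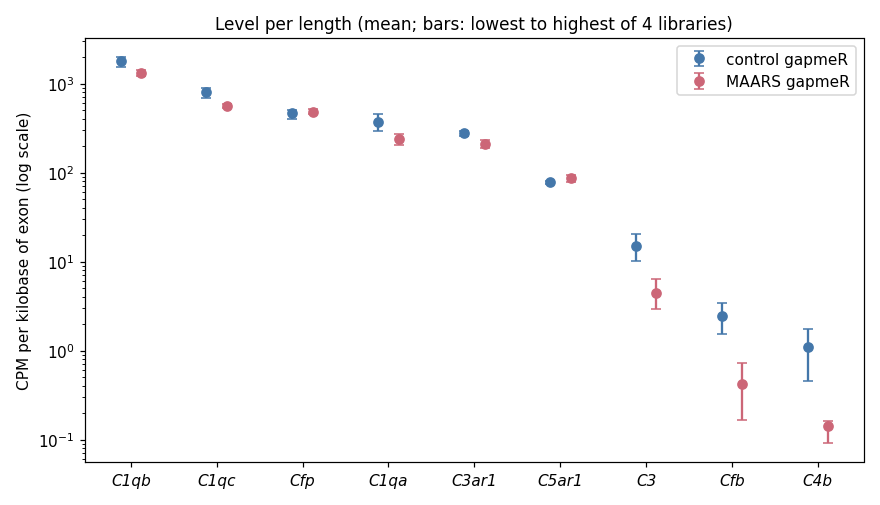
Mean CPM per kilobase of exon (y axis, log scale) of the 9 complement genes in control gapmeR and MAARS gapmeR libraries, with bars from the lowest to the highest of 4 libraries. The genes are ordered by their control level, from C1qb at 1787 to C4b at 1.11, and the gap between the groups is widest for C3, Cfb and C4b. The level of Cfb is understated where reads shared with Gm20547 were left out.

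The rest of the pathway was examined in a list of 51 other complement genes, of which 24 were tested, 8 had no count in any library and 19 had too few. Of the 24, 4 were lower, 5 were higher and 15 did not pass, with a median log2 fold change of -0.05. By the same call 24.0% of all genes tested were lower and 21.3% were higher with MAARS gapmeR. Of the 7 terminal components, C6, C7, C8b and C9 had no count, C8a had 1 count in all and Hc, which encodes C5, had 2. C8g, which encodes a chain of C8, was the 1 tested, at 1.84 ± 0.158 CPM in the controls and 2.35 ± 0.242 CPM with MAARS gapmeR (SD, n = 4), and did not pass (adjusted p = 0.103 from edgeR). Among the 7 regulators tested Cr1l (CRRY), Cd59a, Cd55, Cd46, Serping1 and Csmd1 did not pass, and the rest is not reported here by name.

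Among the initiators and proteases Colec12, a scavenger receptor collectin, rose from 16.9 ± 1.74 to 34.7 ± 2.38 CPM (SD, n = 4 each). C2, which shares 42.8% of its exonic bases with Gm20547, went from 1.15 ± 0.227 to 0.594 ± 0.191 CPM and Masp1 from 0.885 ± 0.125 to 0.447 ± 0.132 CPM (adjusted p = 0.0177 and 0.0163 from edgeR), both at few counts. C2 did not pass without control library 5, nor without control libraries 2 and 5. C1ra, which encodes the protease C1r, did not pass (log2 fold change -0.40, adjusted p = 0.0635 from edgeR). Of the other receptors and binding proteins, the complement receptor 3 and 4 subunits Itgam and Itgax rose with log2 fold changes of 0.18 and 0.34, and Lrp1, an endocytic receptor, with 0.29 (adjusted p = 0.0107, 0.00393 and 0.00456 from edgeR). Itgb2, the gene of the beta chain of both complement receptors, did not pass (log2 fold change 0.09, adjusted p = 0.138 from edgeR) except with upper-quartile factors. In GENCODE M21 68.7% of the exonic bases of Itgam are shared with Gm49368. Calr, which encodes the C1q-binding protein calreticulin, fell from 1192 ± 45.3 to 1026 ± 43.2 CPM (log2 fold change -0.22, adjusted p = 0.0046 from edgeR). C5ar2, the second C5a receptor gene, fell by 0.28 on the log2 scale (adjusted p = 0.0397 from edgeR) with overlapping groups, and did not pass without control library 6, control library 7, MAARS gapmeR library 13 or MAARS gapmeR library 15, nor with upper-quartile factors. Without control libraries 6 and 7 together, C2, Masp1, C5ar2 and Itgam did not pass, leaving 1 lower and 4 higher genes.

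**Figure D5:**
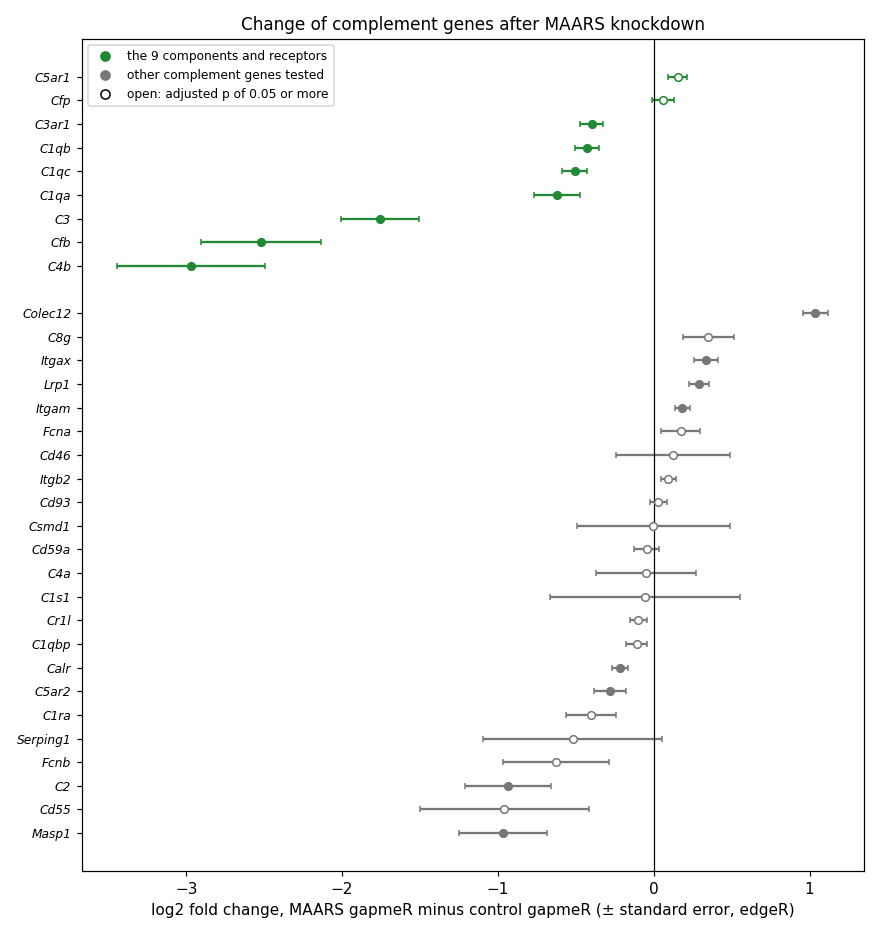
The log2 fold change of MAARS gapmeR against control gapmeR (x axis, ± standard error from edgeR) for the 9 complement components and receptors (green) and other complement genes tested (grey), open circles marking an adjusted p of 0.05 or more. C4b, Cfb and C3 lie furthest to the left at -2.97, -2.52 and -1.76, and Colec12 lies furthest to the right of the genes shown at 1.04.

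No member rose past the test, so the search for genes with a like pattern was made for the member that fell most, C4b. Among 8666 tested genes with a mean of at least 10 CPM, likeness was the root mean square difference over the 8 libraries between log2 CPM profiles, each relative to its control mean. The nearest were Fgl2, a fibrinogen-like gene, at 0.34, and the class Ib histocompatibility genes H2-Q7 at 0.37 and H2-Q6 at 0.43. H2-Q6 and H2-Q7 are close paralogs whose reads the counting could have split. Their log2 fold changes were -3.03, -3.01 and -2.71.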

How the data were processed

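RNA-Seq libraries of ribodepleted total RNA from 4 control gapmeR and 4 MAARS gapmeR samples were used. The authors mapped trimmed reads to mouse build mm10 (GRCm38) by STAR, using Ensembl release 79, and deposited raw counts per gene, which are not normalized. The submitters' processing notes list featureCounts, Trimmomatic 0.36, STAR 2.5.2b and Subread 1.5.2. The strand setting and the treatment of reads matching several genes are not given in the sources used here.

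Counts were analysed with edgeR 4.0.16 in R 4.3.3. Genes passing filterByExpr (at least 10 counts by library size, 15 in total) were scaled with TMM factors, compared with glmQLFit and glmQLFTest, and adjusted by Benjamini-Hochberg over the 13051 genes tested. The standard error was derived from the log2 fold change and its F statistic. Levels per kilobase use merged exons of GENCODE M21 (GRCm38), in which 99.3% of genes were found. Alternatives were RLE and upper-quartile factors, DESeq2 1.42.0, limma-voom 3.58.1, a robust prior, 2 other filters, other thresholds, other lengths and scales, and each library left out. Leaving out 2 control libraries together was added after the data were seen. The 9 genes and all lists were chosen with earlier results of these data known. Named are all 9 genes, MAARS, and the other complement genes that passed, apart from items not reported here by name. Also named are the 3 genes nearest in profile to the called member with the largest change in each direction. Other genes are named as context. The procedure was tested on simulated counts. A planned comparison of protein sequences was not run. Some items counted in the lists are not reported here by name.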

Additional observations from a re-analysis of the deposited data

Results flagged for a closer look

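Each of the 2 groups of 4 libraries was searched for a library standing far from the others in 19 genes, which makes 38 searches, of which about 1 in 20 flags a library by chance alone. A single library stood out: C4b in MAARS gapmeR library 15, at 0.520 CPM, lay below the other MAARS gapmeR libraries at 0.851, 0.915 and 0.919 CPM, with a gap of 0.83 of the range of the group. It corresponds to 12 counts, so counting error alone is large.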

How the results depend on the processing

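The 7 falls of C1qa, C1qb, C1qc, C3, C3ar1, Cfb and C4b kept their direction and an adjusted p under 0.05 in each of 17 alternatives, including each library left out. When a change of 1 or more on the log2 scale was also required, 3 of the 9 genes were called, all lower. At an adjusted p under 0.0001 edgeR called 0 and limma-voom 0, while DESeq2 called 6, and 8 had an unadjusted p under 0.05 with each of these tools. The share of all genes passing these other cutoffs is not given here. These counts alone therefore do not set the complement genes apart from other genes. Cfp turned to -0.0166 without control libraries 2 and 5, and C5ar1 passed in 3 alternatives. With each library left out 7 to 8 of the 9 genes were called. Among all genes tested in these fits, 20.95% to 22.9% were lower and 17.5% to 20.4% were higher. Of the other complement genes 9 were called, with a range of 8 to 10 when 1 library was left out. There were 5 without control libraries 6 and 7, where 17.4% of all genes were lower and 14.7% higher. Without control libraries 2 and 5 there were 10, beside 20.8% lower and 19.1% higher among all genes. The cause was not tested. Upper-quartile factors moved the median log2 fold change of all genes from 0.01 to 0.07 and made 60.4% of all called genes higher in place of 47.0%. Without a filter on low counts 10 other complement genes were called, beside 12.4% lower and 10.9% higher among all genes then tested. The group differences of the 6 ratios moved by less than 1 SD, taken from the group with the larger SD, when a library was left out. Plain counts could not move these differences, because the length term is the same in every library. The order of levels did not change with the length of the longest transcript. Low counts limit Cfb and C4b, with at least 1 library at 10 and 12 counts. No paired analysis was possible because the groups share no replicate number.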
